A study of Mus musculus with 23 samples.

Results

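Collagen genes, taken as every gene whose symbol has the form Col, a type number, the letter a and a chain number, were followed through 4 stages of blood formation from mouse embryonic stem (ES) cells, with and without the leukaemic fusion protein RUNX1-ETO. Of the 44 such symbols in the RefSeq gene table, 42 were matched by a probe of the array through the probe's RefSeq accession, and Col6a3 and Col12a1 were not analysed here. These 42 genes are among 20145 genes with a symbol on the array. For 30 of the 42, the representative probe, which is the one with the highest mean of those of a gene, reached a log2 intensity of 6.5 on at least 1 array, and these 30 entered the tests among 15202 genes. The highest value among the 12 genes left out was 6.49 for Col8a1, and the lowest maximum among those tested was 6.51 for Col13a1.

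RNA of cells from an ES line labelled C57BL/6 was labelled with a single dye and read on Agilent SurePrint G3 Mouse arrays. The line is clonal and carries a human RUNX1-ETO transgene behind a tetracycline-responsive promoter in a background with wild-type RUNX1, so that uninduced and induced cells share the transgene and differ in doxycycline (Dox), given at 0.1 µg per ml from day 1 of blast culture for the early stages and overnight for myeloid progenitors. Haemogenic endothelium (HE; KIT+, Tie2+, CD41-) is the endothelial cell type from which blood cells arise, HE2 cells (KIT+, Tie2+, CD41+) are in transition, and progenitors (KIT+, Tie2-, CD41+) have lost the endothelial marker. Myeloid progenitors were grown from floating progenitors in medium with cytokines. There were 3 arrays each of uninduced and induced HE, HE2 and myeloid progenitors and 2 each of uninduced and induced progenitors, labelled as biological replicates, which makes 22 arrays in the fit. An additional array of uninduced progenitors, labelled a technical replicate, was normalized with them and left out of the comparisons. The labels of the third array of induced myeloid progenitors disagree on whether it is a biological or a technical replicate. Whether the replicates were separate cultures is not stated, and the P values measure the spread between these arrays.

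Collagens are triple helices of 3 chains, which can come from 1 gene or from several. Fibrillar chains (types I, II, III, V, XI, XXIV and XXVII) build the banded fibres of connective tissue, type IV chains build the sheet-like network of basement membranes beneath endothelium and epithelium, and type VI chains form beaded filaments between cells and matrix. FACIT collagens attach to the surface of fibrils, type VII forms anchoring fibrils, types VIII and X form short-chain networks, multiplexins such as type XVIII carry sugar chains in basement membranes, and transmembrane collagens span the cell surface. Endothelial cells lay down type IV and type XVIII collagen, whereas mature blood cells leave the matrix and make little of either.

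The promoters of the 6 collagen genes that rose with Dox at any stage are shown because RUNX1-ETO binds DNA through the RUNX1 part of the protein. Each run covers 250 bases before to 50 bases after a start site in RefSeq's GRCm38.p6 table, 5′ to 3′ on the strand of the gene, with any TGTGGT or TGCGGT, the letters of the RUNX core motif, in capitals on this strand, or ACCACA or ACCGCA where it lies on the other. The runs are Col5a3 (chr9:20815018-20815317, minus strand), Col6a1 (chr10:76725995-76726294, minus strand), Col17a1 (chr19:47691993-47692292, minus strand), Col3a1 (chr1:45311288-45311587, plus strand), Col4a2 (chr8:11312555-11312854, plus strand) and both entries of Col18a1, the first at chr10:77113656-77113955 and the second at chr10:77166481-77166780, both on the minus strand.
Col5a3: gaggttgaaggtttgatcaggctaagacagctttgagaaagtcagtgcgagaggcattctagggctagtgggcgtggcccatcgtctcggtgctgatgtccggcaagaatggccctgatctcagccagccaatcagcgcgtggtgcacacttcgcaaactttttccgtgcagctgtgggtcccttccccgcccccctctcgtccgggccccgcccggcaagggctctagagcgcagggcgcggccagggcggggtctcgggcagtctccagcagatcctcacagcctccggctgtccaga
Col6a1: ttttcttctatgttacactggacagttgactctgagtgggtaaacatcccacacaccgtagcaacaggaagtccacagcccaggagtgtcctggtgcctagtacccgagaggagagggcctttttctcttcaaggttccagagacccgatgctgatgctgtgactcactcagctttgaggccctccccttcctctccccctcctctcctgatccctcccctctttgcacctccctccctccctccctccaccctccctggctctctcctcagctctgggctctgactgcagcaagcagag
Col17a1: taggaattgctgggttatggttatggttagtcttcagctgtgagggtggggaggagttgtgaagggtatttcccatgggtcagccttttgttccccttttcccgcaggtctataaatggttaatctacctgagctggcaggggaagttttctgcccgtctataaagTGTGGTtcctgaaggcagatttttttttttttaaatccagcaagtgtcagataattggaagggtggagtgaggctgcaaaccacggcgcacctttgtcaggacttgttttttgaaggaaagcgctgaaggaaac
Col3a1: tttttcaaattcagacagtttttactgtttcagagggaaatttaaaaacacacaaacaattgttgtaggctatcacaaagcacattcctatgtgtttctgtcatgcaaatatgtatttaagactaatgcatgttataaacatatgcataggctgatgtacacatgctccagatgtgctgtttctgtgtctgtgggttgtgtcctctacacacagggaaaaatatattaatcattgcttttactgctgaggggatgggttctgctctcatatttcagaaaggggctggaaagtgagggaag
Col4a2: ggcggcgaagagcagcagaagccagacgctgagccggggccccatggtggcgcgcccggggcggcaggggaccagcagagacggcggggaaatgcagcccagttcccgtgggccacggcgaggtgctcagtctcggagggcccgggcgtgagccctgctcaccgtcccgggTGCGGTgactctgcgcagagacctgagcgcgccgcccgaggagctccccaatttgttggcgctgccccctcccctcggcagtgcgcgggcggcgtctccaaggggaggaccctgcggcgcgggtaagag
Col18a1, first entry: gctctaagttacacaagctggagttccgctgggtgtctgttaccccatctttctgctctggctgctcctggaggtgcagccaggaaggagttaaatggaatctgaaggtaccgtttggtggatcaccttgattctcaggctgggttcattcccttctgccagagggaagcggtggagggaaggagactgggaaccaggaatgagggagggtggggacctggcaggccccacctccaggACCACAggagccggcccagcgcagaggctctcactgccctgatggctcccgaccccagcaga
Col18a1, second entry: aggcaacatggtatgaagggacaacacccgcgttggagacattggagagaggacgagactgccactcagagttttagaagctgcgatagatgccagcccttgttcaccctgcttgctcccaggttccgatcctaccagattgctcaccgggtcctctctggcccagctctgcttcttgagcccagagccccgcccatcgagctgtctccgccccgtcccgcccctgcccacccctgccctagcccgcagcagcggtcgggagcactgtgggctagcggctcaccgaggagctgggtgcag
Of 37 promoter entries for 34 collagen genes, 6 held a match on either strand (16.2%), against 22.4% of the 32851 entries of the same length in the table. The matches lay 84 bases before the start of Col17a1, 79 before that of Col4a2 and 12 before that of the first Col18a1 entry, and the others were in Col4a4, Col8a1 and Col19a1. Col5a3 and Col6a1, which rose at 3 stages, Col3a1 and the second Col18a1 entry had no match in this window, nor had Col1a2, Col4a1, Col4a5, Col4a6 and Col11a1. Col1a1 had no promoter entry among these. Such letters are a description of the sequence and no sign of binding. Col4a1 and Col4a2 lie on opposite strands of chromosome 8 with start sites 21 bases apart, and both windows share 78 bases. Each start site lies just inside the other gene, so that the 5′ ends overlap. Col4a5 and Col4a6 lie on opposite strands of the X chromosome and face away from each other, with 1343 bases between their start sites.

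Across arrays, 48.8 to 78.4% of spots were well above background. Runx1t1, the mouse gene for the ETO part, was higher with Dox at each stage, with no overlap between induced and uninduced arrays, and its log2 change with Dox lay between 1.24 in HE and 3.96 in progenitors. In HE, where its uninduced mean was 10.81, the change did not pass the threshold used below (limma, adjusted P = 0.0155). Each of the 6 endothelial and sort markers (Tek, Kit, Itga2b, Cdh5, Pecam1 and Kdr) was well above background on at least 1 array of every group. In bulk RNA, fewer cells of a type and less RNA per cell cannot be told apart. The arrays lay on 3 slides. All myeloid progenitor arrays shared the third with induced progenitor array 2 and the technical replicate, and this slide was scanned on another day than the other two.

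With Dox, a few collagen genes of several classes changed while most did not pass the test, and both directions occurred in the early stages. The call for a gene needed a 2-fold change or more together with P of 0.001 or less before adjustment. Among the 30 collagen genes tested in HE, 4 rose, against 4.7% of all genes tested, and 1 fell, against 2.39%. In HE2, 3 rose, against 5.17% of all genes, and 3 fell, against 2.05%. In progenitors 1 rose, against 3.03%, and none fell, against 0.704%. In myeloid progenitors 4 rose, against 5.13%, and none fell, against 1.18%. With 1 array left out in turn, 0 to 2 fell in HE and 1 to 3 in HE2, and 0 to 1 rose and 0 to 1 fell in progenitors. Other alternatives also moved some of these counts, as given in the closing section. By limma, 3 collagen genes in progenitors and 1 in myeloid progenitors had a lower value with Dox at an unadjusted P under 0.05. In all, 9 of the 30 genes were called with Dox at 1 or more stages, against 14.5% of all genes tested. The median log2 change of the tested collagen genes was 0.01, 0.25, 0.13 and 0.24 at these stages in order, against -0.01, -0.03, -0.04 and -0.02 over all genes tested. Groups without overlap are common at these group sizes: all induced arrays lay above all uninduced ones for 14.2, 17, 22.6 and 23.9% of all genes tested in HE, HE2, progenitors and myeloid progenitors, and below them for 11, 15.2, 26.4 and 22.7%. Among the 30 collagen genes, 8, 9, 9 and 10 lay wholly above and 5, 6, 3 and 2 wholly below. With no filter on dim genes, all 42 genes were tested, and the counts of collagen genes called higher or lower with Dox at each stage were the same.

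**Figure D1:**
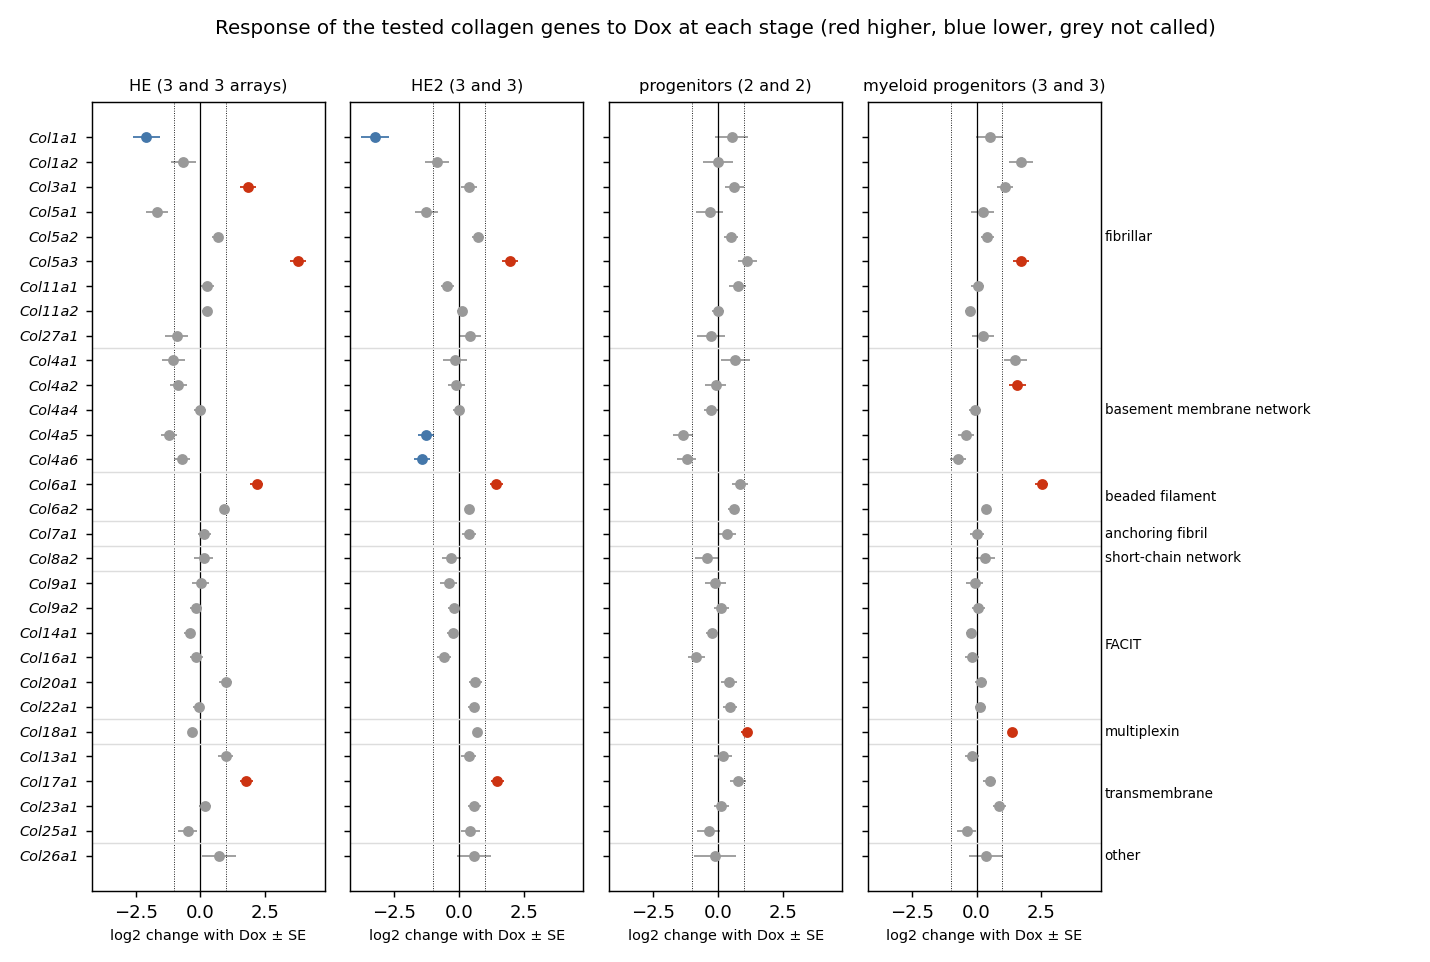
Each point is the log2 change with Dox of a tested collagen gene at a stage and each bar its standard error, with genes ordered by class, red for genes called higher, blue for genes called lower and dotted lines at a 2-fold change. Col5a3 in HE lies farthest to the right, at 3.77, and Col1a1 in HE2 farthest to the left, at -3.25, while the 6 FACIT chains have no coloured point.

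Among fibrillar chains, Col5a3, which encodes the third and least widely expressed chain of type V collagen, rose at 3 stages. In HE its log2 intensity was 5.44, 5.80 and 5.69 on the uninduced and 8.66, 9.57 and 10.00 on the induced arrays. The induced arrays all lay far above the uninduced ones. The mean went from 5.65 ± 0.185 to 9.41 ± 0.682 (SD, n = 3 and 3), which is 13.6-fold or 3.77 on the log2 scale (SE 0.308, adjusted P = 2.24e-07).

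In HE2, Col5a3 read 5.37, 5.41 and 5.10 without and 6.83, 6.92 and 8.03 with Dox. The groups did not overlap, although only 1 of the 3 uninduced HE2 arrays was well above background. The fitted log2 change was 1.97 (SE 0.308, adjusted P = 0.000233), which with so few uninduced arrays well above background does not give the size of the change. In progenitors Col5a3 read 4.99 and 5.43 without and 6.31 and 6.39 with Dox, at least 2.21-fold higher with means of 5.21 and 6.35, which was not called (adjusted P = 0.0897). Without Dox it was not well above background on either progenitor array or on any myeloid progenitor array. In myeloid progenitors it read 4.86, 4.76 and 4.84 without and 6.54, 6.82 and 6.26 with Dox, and was at least 2.55-fold higher with Dox (adjusted P = 0.000737). Such a bound takes, on each array of the dim group, the dimmest signal that still counted as well above background, or the probe's own signal where that was brighter.

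A test of the difference between stages called 2 of the 30 genes between HE2 and HE, of which 1 had the more positive change in HE2, against 0.625% of all genes, and 1 the more negative one, against 0.71%. Between myeloid progenitors and HE, 3 had the more positive change in myeloid progenitors, against 2.96%, and 1 the more negative one, against 1.76%. Myeloid progenitors had Dox overnight and HE from day 1 of blast culture, in another medium. In any difference between these groups, stage, length of Dox and medium cannot be told apart. The change of Col5a3 in HE2 differed from that in HE by -1.80 on the log2 scale (SE 0.435, adjusted P = 0.0571), a difference called by its unadjusted P, and it was called in 4 of the 12 fits that each left out 1 array. The change in myeloid progenitors differed from that in HE by -2.05 (SE 0.435, adjusted P = 0.00612), and this difference was called in each such fit. Since uninduced Col5a3 was well above background on 1 of 3 HE2 arrays and on 0 of 3 myeloid progenitor arrays, the responses at these stages may be larger than measured, and neither the size of these differences nor that they are differences in response is settled by the fit.

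The partner chains of type V collagen were not called with Dox at any stage. Col5a1, its main chain, read 11.61, 12.24 and 11.49 on uninduced and 9.85, 10.22 and 10.31 on induced HE arrays, and 11.57, 11.82 and 10.64 against 9.90, 10.19 and 10.16 on HE2 arrays. The groups did not overlap at either stage, and the log2 changes of -1.66 (adjusted P = 0.0121) and -1.26 (adjusted P = 0.0521) did not pass the threshold. Col5a2, the usual second chain, had positive log2 changes from HE to myeloid progenitors, at 0.67, 0.74, 0.51 and 0.41 by stage, and no difference between the chains was tested. In uninduced myeloid progenitors 1 spot of Col5a2 was marked as an outlier, and the fit used the other 2 arrays.

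Col3a1, which encodes the chain of type III collagen of distensible tissues such as vessel walls, rose with Dox in HE. It read 7.73, 8.23 and 8.44 on the uninduced and 10.12, 9.90 and 9.88 on the induced HE arrays. Every induced array was above every uninduced one, and the log2 change was 1.83 (SE 0.31, adjusted P = 0.000411), or 3.57-fold. In HE2 the arrays read 7.48, 7.44 and 7.17 without and 7.58, 7.55 and 8.15 with Dox, so that the lowest induced array lay just above the highest uninduced one, and the log2 change of 0.40 was not called (adjusted P = 0.445). In myeloid progenitors Col3a1 read 5.38, 5.93 and 5.73 without and 7.49, 6.45 and 6.42 with Dox. These groups did not overlap either, but the log2 change of 1.11 (adjusted P = 0.0218) was not called, and only 1 of the 3 uninduced arrays was well above background. The difference between the responses in HE2 and HE, -1.44, was not called (adjusted P = 0.17).

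Type I collagen, the main fibril of connective tissue, is built of chains from Col1a1 and Col1a2, and Col1a1 fell with Dox in HE and HE2. Col1a1 read 9.02, 10.81 and 9.41 on uninduced and 8.08, 7.85 and 7.08 on induced HE arrays. In HE2 it read 9.70, 10.48 and 8.64 without and 5.74, 7.01 and 6.31 with Dox. The groups did not overlap at either stage, with a wider gap in HE2. Its level was 4.22-fold lower with Dox for HE, at -2.08 on the log2 scale (SE 0.524, adjusted P = 0.0101), and 9.53-fold lower for HE2, at -3.25 (SE 0.524, adjusted P = 0.000299). The call in HE was lost without any 1 of the arrays except uninduced HE array 1, with log2 changes of -2.44 to -1.54, and when only the groups compared were fitted, whereas the call in HE2 stood without each array in turn. Within slides, the log2 difference of Col1a1 in HE2 was -4.35 on the first and -1.98 on the second, a difference of arrays with no test.

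Col1a2 did not follow Col1a1 in passing the threshold with Dox. It read 13.11, 14.67 and 15.14 on uninduced and 13.45, 13.74 and 13.77 on induced HE arrays, 11.62, 12.46 and 11.35 against 10.26, 11.41 and 11.25 in HE2, and 7.65, 8.65 and 8.35 against 10.16, 9.72 and 9.88 in myeloid progenitors. The groups overlapped in HE and HE2 and not in myeloid progenitors, where the induced arrays were the higher ones. The log2 change there was 1.71 (adjusted P = 0.0196), short of the call.

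Markers of other cell types moved with these results. Of 8 smooth muscle and cardiac markers, Acta2 and Hand1 fell and Myl7 rose with Dox in HE, and Acta2, Tagln, Cnn1 and Hand1 fell in HE2. The mean log2 intensity of the list was 10.79 to 11.48 on uninduced and 9.85 to 10.31 on induced HE arrays, and 9.47 to 10.61 against 8.83 to 8.97 in HE2. Of 7 tested fibroblast and mesenchyme markers, Pdgfrb fell and Thy1 rose at both stages, and the list's mean was 6.46 to 7.18 without and 6.71 to 6.88 with Dox in HE and 6.43 to 6.70 against 5.93 to 6.32 in HE2, with Lum and Prrx1 not well above background on any induced array of either stage. Of 2 tested epithelial markers, Krt18 fell at both stages and Krt8 in HE2, and the mean of the 4 on the list was 9.11 to 9.48 against 7.92 to 8.53 in HE and 8.65 to 9.25 against 7.01 to 7.5 in HE2. Itga2b, which encodes the sort marker CD41, fell with Dox in HE by 3.21. Of 4 macrophage and granulocyte markers, Csf1r and Mpo fell with Dox in HE2, and the list's mean was 11.08 to 11.40 without and 10.27 to 10.76 with Dox there, and 9.79 to 11.21 against 9.60 to 10.68 in HE. The part of these cells in the changes of Col1a1, Col3a1, Col5a3, Col6a1, Col17a1, Col4a5 and Col4a6 was not tested.

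Col6a1, which encodes the first chain of type VI collagen, rose with Dox at the same 3 stages as Col5a3. It read 7.97, 8.18 and 7.97 on uninduced and 9.99, 10.20 and 10.45 on induced HE arrays. In HE2 it read 7.13, 7.27 and 6.84 without and 8.58, 7.89 and 9.10 with Dox. In myeloid progenitors the uninduced arrays read 5.51, 5.74 and 5.44, of which 1 was well above background, and the induced ones 8.41, 8.12 and 7.70. The groups were apart at all 3 stages. Its log2 change reached 2.18 for HE (SE 0.253, adjusted P = 9.64e-06). For HE2 it was 1.44 (SE 0.253, adjusted P = 0.000607) and for myeloid progenitors 2.52 (SE 0.253, adjusted P = 2.04e-06), and each call stood without any 1 array. With 1 of 3 uninduced myeloid progenitor arrays well above background, the value of 2.52 does not give the size of the change there. The call in HE2 was lost when only the groups compared were fitted, where limma has fewer arrays for the spread. In progenitors Col6a1 read 6.45 and 6.20 without and 7.4 and 6.96 with Dox, again without overlap, and the change was not called. Col6a2, the partner chain whose gene lies next to Col6a1 on chromosome 10, had a log2 change of 0.92 in HE (SE 0.177, adjusted P = 0.00136), below 2-fold, and of 0.37 to 0.61 at the later stages. Of the other type VI chains, Col6a4, Col6a5 and Col6a6 and the related Col28a1 stayed below the level for testing.

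**Figure D2:**
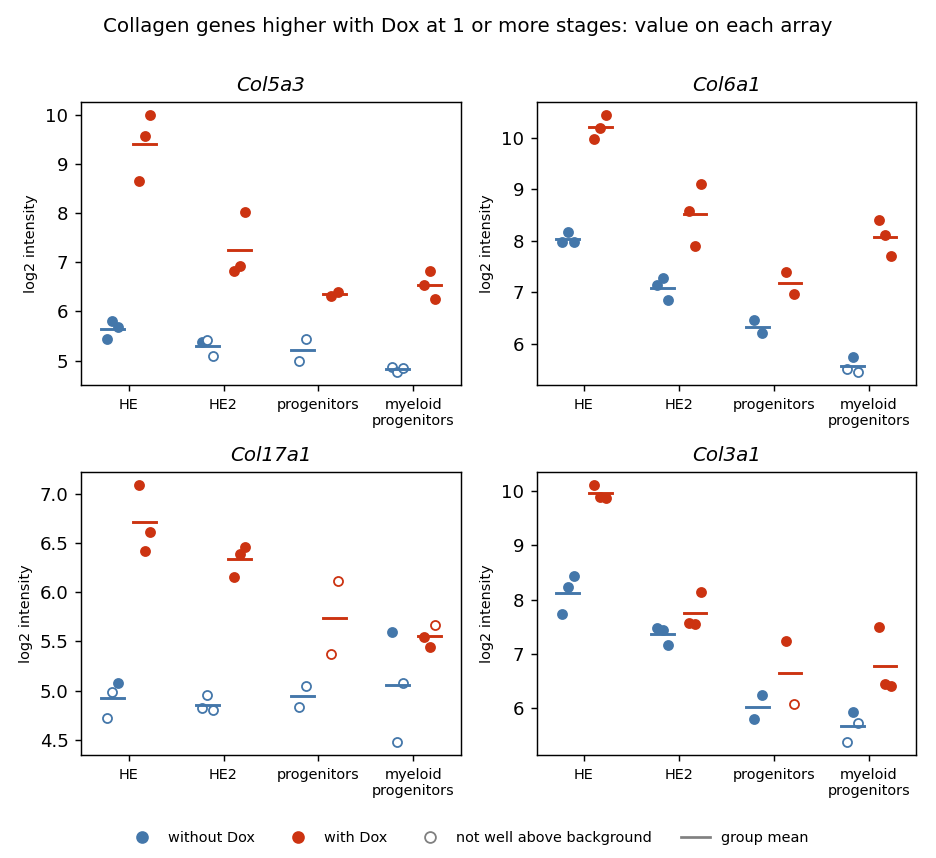
Points are the log2 intensities of single arrays of Col5a3, Col6a1, Col17a1 and Col3a1 at the 4 stages, blue without and red with Dox, open where the probe was not well above background, and lines are group means. In HE the red points lie above all blue points for each of the 4 genes, with induced means of 9.41, 10.21, 6.71 and 9.97.

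Among transmembrane collagens, Col17a1, a component of the hemidesmosomes that fix epithelium to its basement membrane, rose with Dox in HE and HE2. It read 4.72, 4.99 and 5.08 on uninduced and 7.09, 6.42 and 6.61 on induced HE arrays. In HE2 it read 4.82, 4.96 and 4.8 without and 6.15, 6.39 and 6.46 with Dox. The uninduced arrays sat at the bottom of the range, with 1 of 3 well above background in HE and none in HE2, and all induced arrays were well above it. In HE the measured log2 means differed by 1.78 (SE 0.247, adjusted P = 5.78e-05), which with 2 of 3 uninduced arrays not well above background does not give the size of the change, while for HE2 the gene was at least 2.69-fold higher with Dox (adjusted P = 0.000411). With an offset of 50 in the background correction, and with the deposited log2 values, the fitted difference in HE2, which is no bound, was below 2-fold at 0.87 and 0.89, and the call was lost. Col17a1 was not called at the later stages. Col13a1, Col23a1 and Col25a1, the other transmembrane collagens, were called in no comparison, with log2 changes with Dox of -0.49 to 0.98.

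Of the type IV chains of basement membranes, Col4a2 rose with Dox in myeloid progenitors and Col4a5 and Col4a6 fell in HE2, while Col4a1 was not called with Dox at any stage. In HE the log2 changes of Col4a1, Col4a2, Col4a5 and Col4a6 were all negative, at -1.04, -0.85, -1.21 and -0.71, and no difference between the chains was tested. Col4a1 and Col4a2 encode the chains of the common type IV network of most basement membranes. In myeloid progenitors Col4a2 read 11.15, 12.06 and 11.25 without and 13.07, 13.15 and 12.98 with Dox, and Col4a1 read 10.84, 11.86 and 10.82 against 12.80, 12.58 and 12.63. All induced arrays were above all uninduced ones for both genes, and uninduced array 2 was the highest of its group for both. Col4a2 rose by 1.58 on the log2 scale (SE 0.322, adjusted P = 0.00229), a call lost without uninduced myeloid progenitor array 1, and the change of Col4a1 was 1.5 (adjusted P = 0.0348), short of the call.

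In HE, Col4a2 read 15.17, 14.83 and 15.60 without and 14.34, 14.13 and 14.58 with Dox, and Col4a1 read 14.57, 13.80 and 15.48 against 14.09, 13.00 and 13.63. The induced arrays were lower for Col4a2 and overlapped with the others for Col4a1, and neither change was called. The difference between the response in myeloid progenitors and that in HE was 2.43 for Col4a2 (SE 0.456, adjusted P = 0.00242) and 2.54 for Col4a1 (SE 0.646, adjusted P = 0.0205), both called. That for Col4a1 stood in 3 of the 12 fits that each left out 1 array. In HE2 and progenitors the values of both genes overlapped between the groups with and without Dox.

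Col4a5 and Col4a6, which encode the chains of a type IV network found in epithelia and smooth muscle, fell with Dox in HE2. Col4a5 read 9.58, 10.46 and 9.91 on uninduced and 8.25, 9.21 and 8.64 on induced HE2 arrays. Col4a6 read 8.95, 9.86 and 9.16 against 7.43, 8.19 and 8.08. No induced array reached an uninduced one in either gene, and uninduced array 2 was again the highest. The log2 change was -1.28 for Col4a5 (SE 0.313, adjusted P = 0.00797) and -1.43 for Col4a6 (SE 0.306, adjusted P = 0.00313). The call for Col4a5 was lost without uninduced array 2 or 3 or induced array 1 or 3, with log2 changes of -1.54 to -1.04, and that for Col4a6 without uninduced array 2 or induced array 1, with -1.61 to -1.16. Both were lost when only the groups compared were fitted, and that for Col4a5 was also lost with the replicate number as a block.

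At the other stages Col4a5 and Col4a6 had negative log2 changes with Dox and no call. Col4a5 read 9.47, 10.31 and 10.29 against 8.84, 9.01 and 8.60 in HE, a log2 change of -1.21 (adjusted P = 0.0122). In progenitors Col4a5 read 9.67 and 9.75 without and 8.89 and 7.82 with Dox, and Col4a6 8.91 and 9.24 against 8.11 and 7.61. The induced progenitor arrays lay below the uninduced ones for both genes, as they did for 26.4% of all genes with 2 arrays a group. Of the third pair of chains, Col4a3 was not well above background on any of the 22 arrays, and Col4a4 had log2 changes with Dox of at most 0.25 in size.

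Col18a1, the source of the angiogenesis inhibitor endostatin, rose with Dox in progenitors and myeloid progenitors. In progenitors it read 14.41 and 14.23 without and 15.32 and 15.55 with Dox, and in myeloid progenitors 14.07, 14.35 and 14.35 without and 15.70, 15.68 and 15.49 with Dox. The groups were well apart at both stages. The log2 change was 1.12 in progenitors (SE 0.21, adjusted P = 0.00293) and 1.37 in myeloid progenitors (SE 0.172, adjusted P = 2.1e-05). The call in progenitors was lost without uninduced array 2 or induced array 2, with log2 changes of 1.01 to 1.23, under scaling to the 75th percentile, with 0.78, with the scan date as a block, with 1.01, and when only the groups compared were fitted.

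In HE, Col18a1 read 16.03, 15.95 and 15.99 without and 15.50, 15.71 and 15.84 with Dox, and in HE2 15.75, 15.77 and 15.57 against 15.98, 16.51 and 16.70. The induced arrays were the lower ones in HE and the higher ones in HE2, with changes of -0.31 and 0.70 that were both below 2-fold. The response in HE2 exceeded that in HE by 1.01 (SE 0.243, adjusted P = 0.0559), a call that stood in 2 of 12 fits with 1 array left out. That call was lost with the replicate number as a block. The response in myeloid progenitors exceeded that in HE by 1.68 (SE 0.243, adjusted P = 0.000348), which was called in all 12 fits with 1 array left out.

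**Figure D3:**
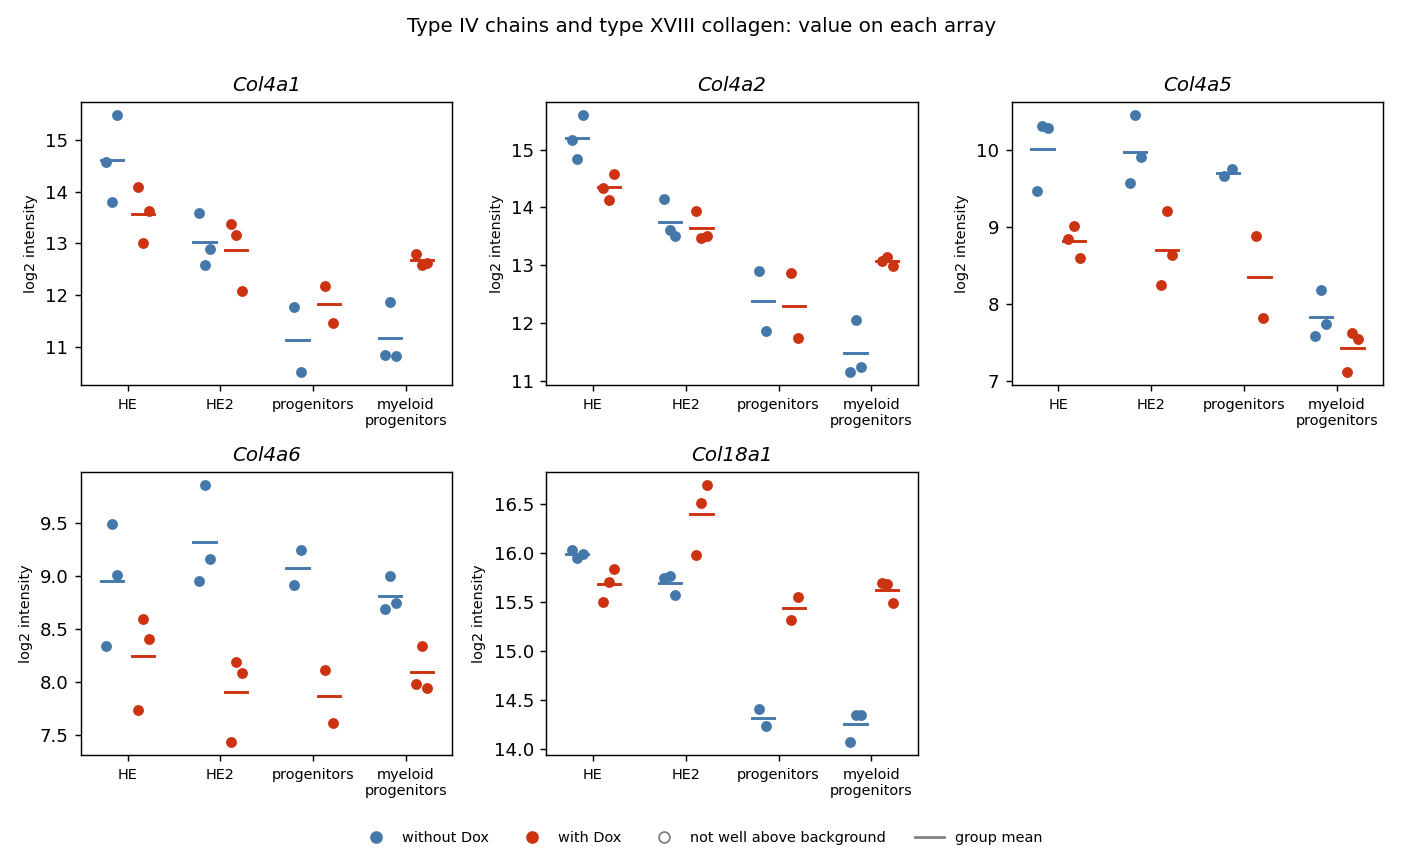
Points are the log2 intensities of single arrays of 4 type IV chains and of Col18a1, blue without and red with Dox, and lines are group means. In myeloid progenitors the red points lie above the blue ones for Col4a1, Col4a2 and Col18a1, with induced means of 12.67, 13.07 and 15.63, and the mean of Col4a6 is lower with Dox at each stage, as in HE2 with 7.90 against 9.33.

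In myeloid progenitors 3 of the 6 endothelial and sort markers rose with Dox, as did Col4a2 and Col18a1, where 5.13% of all genes rose. The other markers of this list were not called, and 1 of the 6 had a negative log2 change. Those that rose were Tek, Kdr and Cdh5, by log2 changes of 3.07, 2.24 and 1.69. The mean log2 intensity of the 6 endothelial and sort markers was 10.99 to 11.33 without and 12.30 to 12.65 with Dox. Of 8 smooth muscle and cardiac markers, Hand2 and Tnnt2 rose, and the mean of the list was 7.21 to 7.72 against 8.11 to 8.34. Of 7 tested fibroblast and mesenchyme markers Pdgfrb fell, with a log2 change of -1.37, and the mean of the 8 on the list was 5.69 to 6.29 without and 5.95 to 6.49 with Dox. In progenitors, where Col18a1 rose, Hand2 and Tnnt2 rose too, and the list's mean was 8.15 to 8.52 without and 8.14 to 8.94 with Dox. The mean of the endothelial and sort markers there was 11.52 to 11.54 without and 11.90 to 12.43 with Dox, with none of the 6 called and 2 higher at an unadjusted P under 0.05 by limma. The mean of the macrophage and granulocyte markers was 11.99 to 12.64 without and 11.48 to 11.55 with Dox in progenitors, and 11.98 to 12.46 against 11.58 to 12.07 in myeloid progenitors, with none of the 4 called. The part of these cells in the changes of Col4a2, Col5a3, Col6a1 and Col18a1 was not tested.

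Without Dox, 2 or 3 collagen genes were called at each step from endothelium to blood, all of them lower, and most did not pass the test. At the last step their share, 6.67%, was near that of all genes. From HE to HE2, 2 of 30 fell, against 2.67% of all genes tested, and from HE2 to progenitors 3 fell, against 3.62%. From progenitors to myeloid progenitors 2 fell, against 6.93%. None rose in these comparisons, in which 2.39, 1.78 and 7% of all genes rose. By limma, 0, 0 and 4 collagen genes were higher at an unadjusted P under 0.05. The median log2 change of the tested collagen genes was -0.18, -0.26 and -0.26 in this order, against 0.03, -0.02 and -0.12 over all genes. The count from HE to HE2 was 0 when only the groups compared were fitted, and that from HE2 to progenitors was 5 with the replicate number, the slide or the scan date as a block and 6 at an adjusted P of at most 0.05 or with the technical replicate entered. From progenitors to myeloid progenitors 0 fell with the slide or the scan date as a block and 4 where calls rest on an adjusted P up to 0.05, and 1 gene rose in 3 of the alternatives. These comparisons share uninduced arrays with each other and with those of Dox.

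Col1a2 fell at the first and the last step of this path. It went from 14.31 ± 1.07 in HE (SD, n = 3) to 11.81 ± 0.583 in HE2 (n = 3) and 10.35 ± 0.237 in progenitors (n = 2) and 8.22 ± 0.513 in myeloid progenitors (n = 3), with uninduced progenitor arrays at 10.19 and 10.52. The HE, HE2 and myeloid progenitor arrays listed above did not overlap with those of the neighbouring stages. At these steps in order, all later arrays lay below all earlier ones for 13.3, 20.3 and 39% of all genes tested. The log2 change was -2.50 from HE to HE2 (SE 0.469, adjusted P = 0.00195), a call lost when only the groups compared were fitted, and -2.14 from progenitors to myeloid progenitors (SE 0.525, adjusted P = 0.00468). The second call was lost without either uninduced progenitor array or without uninduced myeloid progenitor array 1 or 3, with log2 changes of -2.36 to -1.85. With the slide as a block it was -0.43 and not called, and against the technical replicate on the same slide -2.09.

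Col1a1 held its level from HE to HE2, at means of 9.75 ± 0.944 and 9.61 ± 0.922, and fell from HE2 to progenitors, where the 2 uninduced arrays read 5.86 and 6.30. These lay below all uninduced HE2 arrays, as progenitor arrays did for 20.3% of all genes tested. The log2 change of Col1a1 was -3.53 (SE 0.586, adjusted P = 0.000535), or 11.5-fold lower. Col3a1 went from 7.36 ± 0.171 in HE2 to 5.80 and 6.24 in progenitors, a log2 change of -1.35 that was just short of the call (adjusted P = 0.0187). Col11a1, a minor fibrillar chain that sets fibril width, read 6.19, 6.76 and 5.95 in HE2 and was not well above background on either progenitor array, so that it was at least 2.33-fold lower in progenitors (adjusted P = 0.00593). That call was lost without HE2 array 2 or progenitor array 1, with an offset of 50, under scaling to the 75th percentile, with the deposited log2 values, and when only the groups compared were fitted. The fitted differences, which are no bounds, were -1.62 to -1.07 with an array left out and -0.82 with the deposited values. Col5a1 went from 11.34 ± 0.621 to 10.06 ± 0.99 and on to 8.55 ± 0.214 in myeloid progenitors, with no call.

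**Figure D4:**
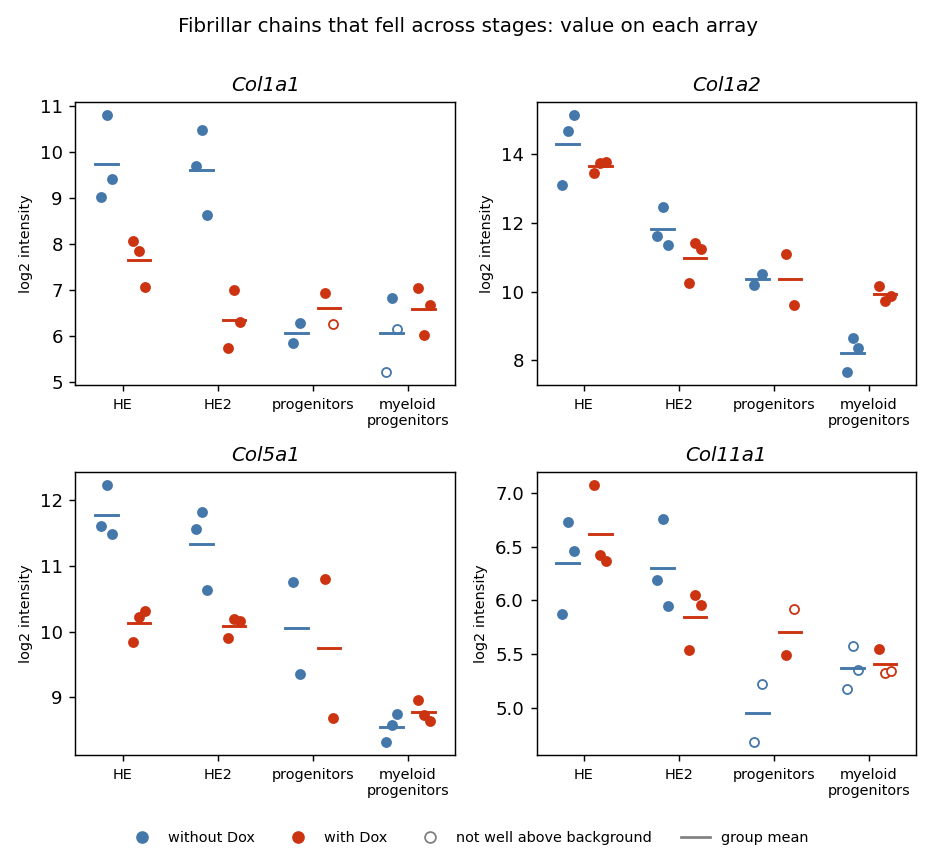
Points are the log2 intensities of single arrays of Col1a1, Col1a2, Col5a1 and Col11a1 at the 4 stages, blue without and red with Dox, open where the probe was not well above background, and lines are group means. The blue means of Col1a2 go down at each stage from 14.31 to 8.22, and those of Col1a1 stay at 9.75 and 9.61 in HE and HE2 before they reach 6.08.

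Of the basement membrane genes, Col4a2 fell from HE to HE2, with arrays at 15.17, 14.83 and 15.60 and then 14.15, 13.61 and 13.50, which made -1.44 on the log2 scale (SE 0.322, adjusted P = 0.00671). The call was lost without uninduced HE array 1 or 3 or uninduced HE2 array 2 or 3, with log2 changes of -1.64 to -1.25, and when only the groups compared were fitted. Col4a1 had a like change of -1.6 that was not called (adjusted P = 0.0309), and from HE2 to progenitors changes of -1.88 for Col4a1 and -1.37 for Col4a2 were not called either (adjusted P = 0.0263 and adjusted P = 0.0215). Col18a1 fell from HE2 to progenitors, from 15.75, 15.77 and 15.57 to 14.41 and 14.23, a difference of -1.38 (SE 0.192, adjusted P = 8.98e-05). Col4a5 stayed near its HE level as far as progenitors, with a mean of 9.71 ± 0.053, and fell in myeloid progenitors to 7.58, 8.18 and 7.74, which made -1.88 (SE 0.35, adjusted P = 0.000573). With the slide as a block that change was -0.70 and not called, and against the technical replicate on the same slide -1.22. Since all uninduced myeloid progenitor arrays but no other uninduced array in the fit lay on the third slide, the stage and the slide cannot be told apart there beyond these values. Col4a6 was near 9 at every uninduced stage, with means from 8.81 to 9.33.

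From HE to HE2 without Dox, all 8 smooth muscle and cardiac markers had negative log2 changes, with a median of -0.89, of which Hand2 fell, and of 4 macrophage and granulocyte markers Mpo rose by 3.34. From HE2 to progenitors, 4 of 8 smooth muscle and cardiac markers (Cnn1, Hand1, Hand2 and Tnnt2) fell with Col1a1 and Col11a1, where 3.62% of all genes fell, and the mean of the list went from 9.47 to 10.61 on HE2 arrays to 8.15 to 8.52 on progenitor arrays. Cdh5, which encodes VE-cadherin of endothelial junctions, fell as well, by 1.53, and of 4 macrophage and granulocyte markers Mpo rose by 1.80. The mean of the fibroblast and mesenchyme markers was 6.43 to 6.70 on HE2 and 6.06 to 6.30 on progenitor arrays. That of the epithelial markers was 8.65 to 9.25 and 7.91 to 8.21. No tested marker of either list was called (by limma, 1 of each was lower at an unadjusted P under 0.05). From progenitors to myeloid progenitors, Acta2, Tagln, Cdh5, Kit and Pdgfrb fell, with log2 changes of -3.52, -4.08, -2.24, -2.61 and -1.21, and Tnnt2 rose by 1.97, while Csf1r rose by 2.17 and Mpo had a log2 change of -1.86 and fell. Their part in the collagen changes was not tested.

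With Dox, the step from HE to HE2 went with a fall of 4 collagen genes, against 1.47% of all genes tested, and with no rise, against 1.62% (1 gene was higher at an unadjusted P under 0.05). The median log2 change of the tested collagen genes was -0.29, against 0.01 over all genes. Col1a2 fell from 13.45, 13.74 and 13.77 on induced HE arrays to 10.26, 11.41 and 11.25 on induced HE2 arrays, a log2 change of -2.68 (adjusted P = 0.00164). Of the 4 genes that rose with Dox in HE, Col3a1, Col5a3 and Col6a1 had log2 changes of -2.21, -2.15 and -1.69 (adjusted P of 0.000245, 0.000292 and 0.000441), while that of Col17a1 was -0.37 and not called. The call of Col5a3 was lost when only the groups compared were fitted. These changes use the same induced HE arrays as the Dox comparison in HE. On each slide, Col1a2, Col3a1, Col5a3 and Col6a1 were lower in HE2. All 8 smooth muscle and cardiac markers had negative log2 changes at this step, with a median of -1.46, and Acta2, Tagln and Myl7 fell. Thy1 fell and Mpo rose as well. The mean of the fibroblast and mesenchyme markers was 6.71 to 6.88 on induced HE and 5.93 to 6.32 on induced HE2 arrays. That of the epithelial markers was 7.92 to 8.53 and 7.01 to 7.5. Of the 2 tested epithelial markers none was called, and by limma 2 were lower at an unadjusted P under 0.05. The part of these cells in the collagen changes was not tested.

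The 19 tested genes without a call in the 8 comparisons had log2 changes with Dox between -1.66 for Col5a1 and 1.5 for Col4a1, and between stages from -1.88 for Col4a1 to 0.96 for Col7a1. Among the 6 tested FACIT chains, Col20a1 came nearest to a call with Dox, with 6.97, 6.96 and 7.14 on uninduced and 7.61, 7.99 and 8.44 on induced HE arrays. Its groups did not overlap, and the log2 change of 0.99 (adjusted P = 0.0102) was just below 2-fold. Col16a1, another FACIT chain, had the lowest stage change of this class, -1.07 from progenitors to myeloid progenitors (adjusted P = 0.00968). Col26a1 stood apart on single arrays, at 4.89, 7.69 and 5.42 on uninduced and 5.80, 8.26 and 5.0 on induced myeloid progenitor arrays, so that array 2 was the highest in both groups. Of the 12 genes left untested, Col10a1, Col19a1, Col28a1, Col4a3, Col6a6 and Col9a3 were not well above background on any of the 22 arrays. Col15a1, a multiplexin, was well above background on 17.

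Genes that build, handle and bind collagen were described from lists chosen by role. Of 17 genes that modify chains in the endoplasmic reticulum, none passed the test with Dox in HE in either direction (by limma, 0 higher and 2 lower at an unadjusted P under 0.05) and 1 rose each in HE2 and progenitors, where 5.17 and 3.03% of all genes rose. In myeloid progenitors, where 5.13% of all genes rose, 3 did so: Colgalt2, which adds galactose to hydroxylysine, Fkbp10, a folding helper, and Serpinh1, the collagen chaperone HSP47, by 1.41, 1.32 and 1.00 on the log2 scale. From HE to HE2 without Dox 3 of the 17 fell, Colgalt2, Fkbp10 and the prolyl hydroxylase subunit P4ha2, against 2.67% of all genes, and from HE2 to progenitors these and Serpinh1, against 3.62%. From progenitors to myeloid progenitors 1 rose, against 7% of all genes, and 3 fell, against 6.93%. Of 9 tested genes for trimming and cross-linking, 1 rose and 1 fell with Dox in HE and in HE2, where 4.7 and 5.17% of all genes rose and 2.39 and 2.05% fell. Both encode enzymes of the lysyl oxidase family: Loxl1 fell by 1.17 in HE and by 2.50 in HE2, and Loxl3 rose by 1.81 in HE, 2.00 in HE2 and 1.99 in progenitors. In progenitors 3.03% of all genes rose. From HE2 to progenitors without Dox 2 of the 9 fell, against 3.62% of all genes. Of 7 tested genes for degradation and its inhibitors, Timp3 rose with Dox at all 4 stages, by 1.34 to 2.00, and Timp2 fell in HE and HE2, by 1.87 and 1.97. Of all genes tested, 4.7, 5.17, 3.03 and 5.13% rose at these stages in order, and 2.39 and 2.05% fell in HE and HE2. Without Dox, 1 of the 7 fell from HE to HE2, against 2.67% of all genes, and 3 from HE2 to progenitors, against 3.62%. From progenitors to myeloid progenitors none was called (by limma, 3 higher and 0 lower at an unadjusted P under 0.05).

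Of 11 partners of type IV collagen in basement membranes, none was called with Dox in HE (by limma, 2 higher and 1 lower at an unadjusted P under 0.05). In HE2 3 rose (Agrn, Nid1 and Nid2), against 5.17% of all genes, in progenitors 2 (Agrn and Nid1), against 3.03%, and in myeloid progenitors 5, against 5.13%. The 5 were Nid1 and Nid2, the nidogens that link laminin to type IV collagen, with log2 changes of 2.46 and 2.41, Hspg2 (perlecan) with 2.20, Lama5 with 2.07 and Sparc with 1.45. Without Dox, 3 of the 11 fell from HE to HE2, against 2.67% of all genes, and 6 from HE2 to progenitors, against 3.62%, among them Nid1 by 2.50 and Sparc with -1.48. From progenitors to myeloid progenitors 2 rose, against 7%, and 3 fell, against 6.93%. Of 7 tested collagen receptors, Itga1, the chain of an integrin for type IV collagen, rose by 1.65 with Dox in myeloid progenitors, where 5.13% of all genes rose. Gp6, the platelet receptor, fell by 1.6, where 1.18% fell. None was called with Dox at the earlier stages. By limma, 0 were higher and 3 lower in HE, 1 and 3 in HE2 and 2 and 1 in progenitors at an unadjusted P under 0.05. Without Dox, 1 of the 7 fell from HE to HE2, against 2.67% of all genes, and 1 from HE2 to progenitors, against 3.62%. From progenitors to myeloid progenitors 1 rose, against 7%.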

How the data were processed

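RNA of 23 samples was measured on 1-colour arrays. The authors deposited the median intensity of each spot and of its background, read with Feature Extraction (10.7.1.1 per the labels, 10.7.3.1 in the file headers), without normalization between arrays. They also deposited log2 values, corrected for background and quantile normalized, with a column per array and 0 columns left out. For the induced HE, HE2 and myeloid progenitor groups, the log2 values of arrays 2 and 3 match the scanner intensities of arrays 3 and 2. Which numbering is right is not known. Array numbers here are those of the scanner files, and the groups do not depend on it.

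The intensities were corrected with normexp (offset 16), and 3671 control spots were left out beside 59305 others, as were outlier spots. Arrays were quantile normalized and spots averaged to 55681 probes, of which 26582 had a symbol through the RefSeq table of GRCm38.p6. Since the array's annotation uses another build, the table gave names only. A mean per group was fitted with limma 3.58.1 in R 4.3.3 (package data.table, version 1.17.8) to 22 arrays, with 14 residual degrees of freedom, and P values were adjusted over 15202 genes by the Benjamini-Hochberg method. Genes called in at least 1 of the 8 comparisons are given array by array, beside partner chains picked for their gene pair. The script was tested on simulated data.

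Uninduced HE and HE2 arrays of the same number deviated together (correlations 0.394, 0.795 and 0.608 across genes). These arrays also shared a slide, so that a pairing by number cannot be told apart from the slide. The alternatives are named in the closing section. The members and lists were chosen with earlier results of these data known. The number of arrays limits the precision.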

Additional observations from a re-analysis of the deposited data

Results flagged for a closer look

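A test of the difference in log2 change with Dox between stages called 4 collagen genes, with a size of 2-fold or more and P of 0.001 or less before adjustment. Between HE2 and HE, 2 of 30 genes were called, against 1.34% of all genes tested, and between myeloid progenitors and HE 4 were called, against 4.72%. For Col18a1 the difference was 1.01 on the log2 scale between HE2 and HE and 1.68 between myeloid progenitors and HE. For Col5a3 it was -1.80 between HE2 and HE and -2.05 between myeloid progenitors and HE. The uninduced signal of Col5a3 was well above background on 3 of 3 HE, 1 of 3 HE2 and 0 of 3 myeloid progenitor arrays. These values therefore settle neither the size of a difference nor that it is one in response. For Col4a1 and Col4a2 it was 2.54 and 2.43 between myeloid progenitors and HE. The P of Col18a1 and Col5a3 between HE2 and HE does not hold an adjustment over all genes (adjusted P = 0.0559 and 0.0571). When only the groups compared were fitted, Col18a1 and Col5a3 between HE2 and HE and Col4a1 between myeloid progenitors and HE were no longer called. With the replicate number as a block, Col18a1 between HE2 and HE was not called either. The myeloid progenitor arrays all lay on 1 slide, with both groups on it, and the HE arrays on the other two. Dox was given overnight in myeloid progenitors and from day 1 of blast culture in HE, so its length cannot be told apart from the stage. No group holds enough arrays for a test of single arrays that stand apart.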

How the results depend on the processing

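Of 252 counts of called collagen genes under the alternatives, 216 stayed within 1.5 times the main count. Of 462 values of the 33 called changes, 420 were still called, 42 kept their direction without the call and 0 reversed. Fits with 1 array left out are not among these values, and a larger share of the calls was lost there. With an offset of 50, 3 genes fell with Dox in HE and 1 from progenitors to myeloid progenitors. With scaling to the 75th percentile, 2 fell with Dox in HE, 0 rose in progenitors, 1 fell from progenitors to myeloid progenitors and 0 differed between HE2 and HE in response. With early stages and myeloid progenitors normalized apart, 1 gene rose and 1 fell from progenitors to myeloid progenitors. At an adjusted P of at most 0.05, 3 fell with Dox in HE and 1 in progenitors, 7 rose in myeloid progenitors, 6 fell from HE2 to progenitors and 4 from progenitors to myeloid progenitors, and 0 and 7 differed from HE in the response of HE2 and of myeloid progenitors. With only the groups compared, 1 fell with Dox in HE2, 0 rose in progenitors, 0 fell from HE to HE2 without Dox and 1 differed between HE2 and HE. With the technical replicate entered, 6 fell from HE2 to progenitors and 1 rose from progenitors to myeloid progenitors.

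With the replicate block, 5 genes fell from HE2 to progenitors, 1 fell from progenitors to myeloid progenitors and 1 differed between HE2 and HE. The calls lost there were those of Col4a5 with Dox in HE2 (-1.28), Col1a2 from progenitors to myeloid progenitors and Col18a1 between HE2 and HE (1.01), and the block ended no other call. From HE to HE2 without Dox, where arrays of the same number deviated together and shared a slide, the block kept the calls of Col1a2 (-2.50) and Col4a2 (-1.44). As labelled, the numbers do not pair the arrays with and without Dox in HE, HE2 and myeloid progenitors, with correlations of -0.0544, 0.694 and -0.0955 in HE, 0.36, -0.534 and -0.446 in HE2 and 0.212, -0.127 and -0.00665 in myeloid progenitors. In progenitors the correlation was 0.229 for both numbers, with 2 pairs too few to show a pairing. With numbers 2 and 3 exchanged in the induced groups, as the deposited log2 values have them, the correlations were 0.36, 0.606 and 0.486 in HE2 and 0.212, 0.126 and 0.261 in myeloid progenitors, all over 0.1, and -0.0544, -0.204 and -0.36 in HE. With numbers 2 and 3 exchanged in the induced groups, a block chosen after seeing the data, 0 fell with Dox in HE, 5 from HE2 to progenitors and 1 from progenitors to myeloid progenitors, where 1 rose, and 1 differed between HE2 and HE. In HE2, 3 rose and 3 fell with Dox under that block with all 6 main calls kept, and in myeloid progenitors 5 rose, among them the 4 main calls. With the slide as a block, 2 fell with Dox in HE, 5 from HE2 to progenitors and 0 from progenitors to myeloid progenitors. With the scan date as a block these were 2, 5 and 0, and 0 rose with Dox in progenitors. Of the 33 called changes, 4 lost the call with the slide as a block and 5 with the scan date, and none reversed.

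Leaving out each array in turn, 4 to 6 rose and 0 to 2 fell with Dox in HE, 3 to 3 rose and 1 to 3 fell in HE2, 0 to 1 rose and 0 to 1 fell in progenitors, and 3 to 4 rose in myeloid progenitors. From HE to HE2, 1 to 3 fell without and 4 to 4 with Dox, from HE2 to progenitors 2 to 4 and from progenitors to myeloid progenitors 1 to 2. Between HE2 and HE, 0 to 1 differed in response, and between myeloid progenitors and HE 3 to 5. Col5a3, Col17a1, Col11a1, Col6a1 and Col3a1 were not well above background on some or all arrays of some groups, where fitted differences do not give the size of a change. Groups of 2 or 3 arrays limit what can be called.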

Other observations

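The technical replicate of uninduced progenitors, in no comparison above, read 9.05 for Col4a5 and 8.91 for Col4a6, where the uninduced progenitor arrays read 9.67 and 9.75 for Col4a5 and 8.91 and 9.24 for Col4a6. It read 8.31 for Col5a1, against 10.76 and 9.36, and 4.83 for Col6a1, not well above background, against 6.45 and 6.20. Col9a3, which was not well above background on any of the 22 arrays, read 6.37 there and was well above background.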
